A study of Gallus gallus with 24 samples.

Results

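The mitochondrial solute carriers of the SLC25 family were followed in the liver of the chicken from late incubation to the second week of life. All probe sets whose platform gene symbol begins with SLC25A, or is UCP3, were taken, and each gene was read from 1 probe set, that with the highest mean over the 24 arrays. This gave 34 genes, with 72 probe sets among them, of the 13009 genes that the array names. The genes were chosen by name and the probe set by its mean over all ages, with no difference between ages entering the rule.

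SLC25 proteins are built from repeated pairs of membrane helices and sit, with few exceptions, in the inner mitochondrial membrane. They carry what the membrane would otherwise hold back: ATP and ADP, phosphate, citrate and other organic acids, amino acids, acylcarnitines, iron, glutathione, nucleotides and cofactors. In the liver they link the matrix to lipogenesis, gluconeogenesis and the uric acid pathway of the cytosol. The embryo lives on yolk lipid, whereas the fed chick eats mainly carbohydrate and protein and makes its fat in the liver. Only transcripts were measured here, and transport across this membrane was not.

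Whole livers of male Ross x Ross broilers, a meat-type cross, were sampled at E16, E18 and E20 of incubation (12 embryos) and at D1, D3 and D9 after hatching (12 hatchlings), with 4 birds an age and 1 Affymetrix chicken array a bird. Apart from a vaccine given to the older chicks, no drug or modified gene is described. The D1 chicks were taken unfed from the hatching incubator, and the sources differ on how long they had been held there. The D3 and D9 chicks had been vaccinated against Marek's disease, moved to a heated brooder and given free access to feed and water. Age, vaccine, housing and the first feed therefore cannot be told apart between D1 and D3. A stage tag in the labels reads e16 for the E18 and E20 livers as well, and the sample titles were used for the ages.

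Values are log2 intensities, and a difference of 1 is a doubling. Each difference is the later age minus the earlier, and in E vs. H the mean over the 3 embryonic ages is taken from that over the 3 hatchling ages. A gene was called where limma's moderated test gave a Benjamini-Hochberg adjusted p of 0.05 or less over 38439 probe sets and the log2 difference was at least 0.75 in size. A gene was said to vary over the 6 ages where the moderated F test passed the same limit and its age means spanned at least 0.75. A log2 intensity cannot set the amount of one gene against that of another, so levels are compared within a gene only.

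The livers carried their labels with a pair of exceptions. The mean of 12 measured hepatocyte markers (of 13 listed) lay between 13.12 and 13.37 on every array, and only RBP4 among them was near background, at 4.30 to 4.50 by age. HINTW, a gene of the female W chromosome, read 12.17 on E18 replicate 2, a liver labelled male, while the next highest array read 6.05. NPPA, a heart natriuretic peptide, read 8.11 on D9 replicate 1 and at most 5.23 elsewhere, and the mean of 15 measured heart and muscle markers reached 6.66 on that array against 4.87 to 5.37 over the 5 earlier ages. With both livers left out, 18 carriers varied over the ages as before, with SLC25A13 lost and SLC25A28 gained. The counts of called carriers were then as with all livers in 6 of the 7 contrasts, and fell from 10 to 9 in E18 to D3, where SLC25A47 was lost.

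Of the 5 steps between neighbouring ages, that from E18 to E20 held the most called carriers, and E18 was the low point of many of them. Of the 34 genes, 18 varied over the 6 ages, which is 52.9% against 27.1% of all named genes, and the age means of a carrier spanned 0.79 at the median against 0.45 for all genes. Of these 18, the age mean was lowest at E18 in 11, and E18 was also the commonest low age of all 3525 genes that varied, with 29.4% of them. Over all 34 carriers the lowest age was E18 in 16, or 47.1%, against 19.6% of all named genes. With 1 array left out at a time, SLC25A13, SLC25A14, SLC25A17 and SLC25A36 were each lost from the 18 at least once. A further 9 carriers passed the F test with age means that spanned less than 0.75. The ages that held the highest mean of the 18 were spread out, with E20 and D3 holding 5 each, E16 holding 3, D1 and D9 holding 2 each and E18 holding 1.

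From E18 to E20, 7 carriers were higher at E20 (20.6%), beside 2.4% of all named genes, and 0 were higher at E18, beside 1.83%. They were SLC25A25, SLC25A47, SLC25A4, SLC25A12, SLC25A16, SLC25A5 and SLC25A32. An unadjusted p under 0.05 was reached by 16 carriers with a higher mean at E20 and by 4 with a higher mean at E18, together 58.8% beside 26.6% of all genes. Genes at or above the median level of the carriers were called higher at E20 in 4.5% of cases. The median difference was 0.26 over the carriers and -0.01 over all genes.

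From E16 to E18 only SLC25A37 was called, higher at E16 (2.94% of the carriers), beside 1.37% of all genes higher at E16 and 0.215% higher at E18. Of the 34 differences, 26 had a negative sign, with a median of -0.20 against -0.0008 for all genes. At an unadjusted p under 0.05 there were 8 carriers with a lower mean at E18 and 0 with a higher one, together 23.5% beside 18.7% of all genes in either direction. SLC25A47 joined SLC25A37 when E18 replicate 3 was left out, which made 2.

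Between E18 and the fed D3 chick, 8 carriers were higher at D3 (23.5%), beside 11% of all genes, and 2 were higher at E18 (5.88%), beside 6.03%. Among genes at or above the median level of the carriers, 18.2% were higher at D3, and among those at or above the lowest carrier, 12.2%. The called share of 23.5% thus stood near the first of these backgrounds and further from the second. The 8 were SLC25A30, SLC25A32, SLC25A25, SLC25A47, SLC25A22, SLC25A4, SLC25A1 and SLC25A14, and the other two were SLC25A29 and SLC25A21. By an unadjusted p under 0.05, 18 carriers had a higher mean at D3 and 7 a lower one. Together they were 73.5%, beside 48.3% of all genes. Over the carriers the median difference was 0.38, beside -0.03 over all genes. The call of SLC25A47 was lost without E18 replicate 1, without E18 replicate 2 or without D3 replicate 4. That of SLC25A1 was lost without E18 replicate 1, and that of SLC25A14 without D3 replicate 1. SLC25A48 gained a call without E18 replicate 1, D3 replicate 1 or D3 replicate 3, as SLC25A13 did without E18 replicate 3.

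The other steps touched fewer carriers. From E20 to D1, SLC25A47 alone was higher at D1 (2.94%), beside 3.44% of all genes, and 0 were higher at E20, beside 2.28%. SLC25A17, SLC25A32 and SLC25A39 were called higher at D1 in this step on a probe set that was not used, given below. An unadjusted p under 0.05 was met by 10 with a higher mean at D1 and 5 with a lower one, together 44.1% beside 28.3% of all genes. The count of called carriers in this step rested on single livers: it was 0 without E20 replicate 2, 2 without E20 replicate 1 or D1 replicate 4 and 3 without D1 replicate 2, with SLC25A4 gained in each of the last 3 cases and SLC25A30 in the last. SLC25A47 also lost its call without E20 replicate 3, D1 replicate 1 or D1 replicate 3. SLC25A4 gained one without E20 replicate 3 or D1 replicate 3. Without D1 replicate 1 SLC25A43 gained one, as higher at E20. From D1 to D3, 3 were higher at D1 (8.82%), beside 1.88%, namely SLC25A47, SLC25A29 and SLC25A4, and 0 were higher at D3, beside 2.63%. Among genes at or above the median level of the carriers, 4.02% were higher at D1. In the step from D1 to D3 SLC25A42 gained a call without D1 replicate 2, D3 replicate 2 or D3 replicate 3, and SLC25A25 without D1 replicate 4 or D3 replicate 4. At an unadjusted p under 0.05 there were 4 carriers with a higher mean at D3 and 10 with a lower one, together 41.2% beside 25.1% of all genes. From D3 to D9, limma called 0 carriers in either direction, beside 0.969% of all genes higher at D9 and 1.84% higher at D3. At an unadjusted p under 0.05 there were 4 carriers with a higher mean at D9 and 6 with a lower one, together 29.4% beside 20.7% of all genes. In E vs. H, SLC25A30 and SLC25A47 were higher in hatchlings (5.88%), beside 5.42%, and SLC25A21 was higher in embryos (2.94%), beside 4.11%. With an unadjusted p under 0.05, 18 carriers had a higher mean in hatchlings and 6 a lower one. Together they were 70.6%, beside 51.6% of all genes.

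**Figure D1:**
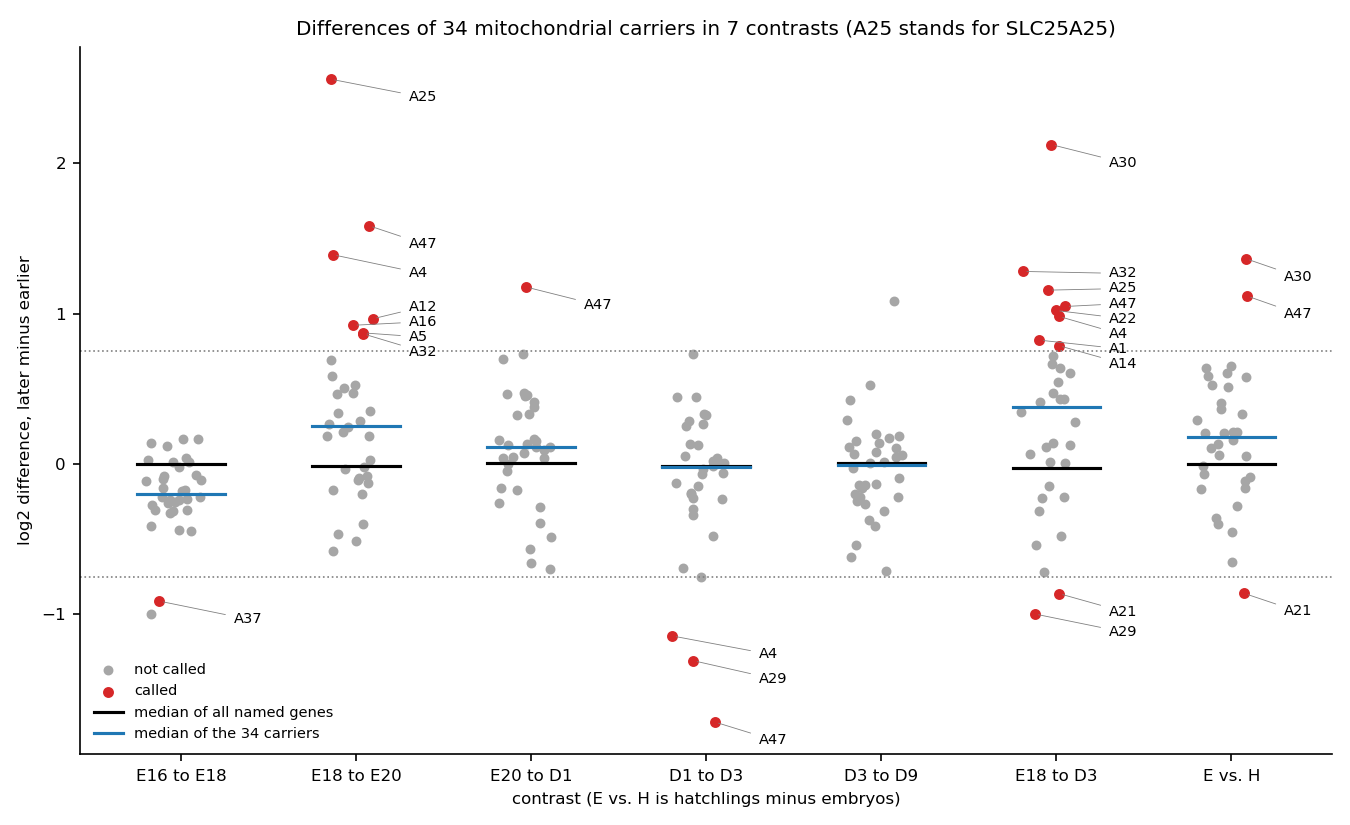
Log2 difference (vertical axis, later minus earlier) of the 34 carriers in the 7 contrasts (horizontal axis), with called carriers in red and named and the limits of 0.75 as dotted lines. Bars give the median of all named genes (black) and of the carriers (blue). The 7 called carriers of E18 to E20 all lie above the upper limit, with SLC25A25 at 2.56.

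**Figure D2:**
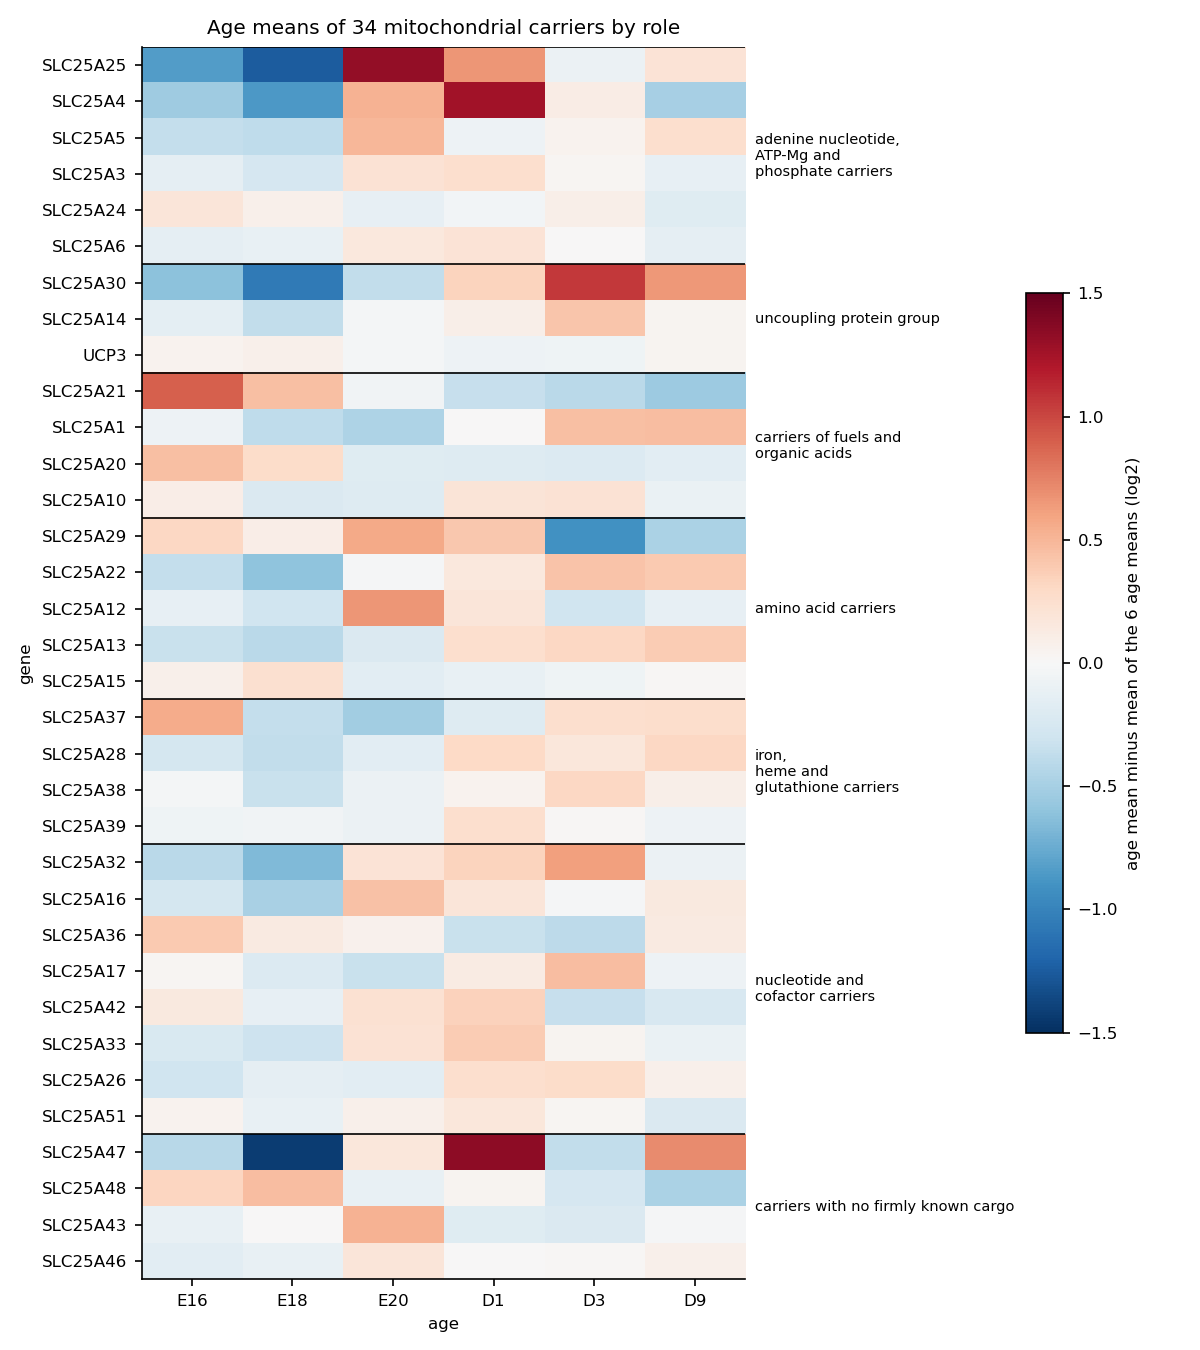
Age means of the 34 carriers as log2 deviations from each gene's mean over the 6 ages (colour scale), with the genes in rows by role and the ages in columns. The E18 column holds the lowest mean of 16 carriers.

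Adenine nucleotide translocases exchange matrix ATP for cytosolic ADP, the ATP-Mg carriers shift the size of the matrix adenine nucleotide pool when calcium rises, and the phosphate carrier SLC25A3 brings in the phosphate for ATP synthesis. In this group of 6 measured genes, 3 were called from E18 to E20 and 3 varied over the ages. Of all named genes 2.4% were called higher at E20 and 27.1% varied, shares that stand beside the later role groups as well. The widest step of the whole family was that of SLC25A25, a calcium-dependent ATP-Mg/phosphate carrier. SLC25A25 stood at 7.47, 7.37, 7.25 and 7.33 in the E16 livers, 6.71, 6.99, 7.29 and 6.78 in those of E18, and 9.31, 9.54, 9.54 and 9.64 in those of E20. In hatchlings the values were 9.02, 8.89, 8.88 and 8.61 at D1, 7.84, 7.94, 8.02 and 8.60 at D3, and 8.40, 8.84, 8.43 and 7.91 at D9. The E20 livers lay above all other livers, and 3 of the 4 E18 livers lay below all livers of the other ages. The difference from E18 to E20 was 2.56 (SE 0.17, adjusted p = 7.14e-09), a 5.9-fold step. SLC25A25 stayed 1.16 (SE 0.17, adjusted p = 1.53e-05) above E18 at D3. From D1 to D3 its difference was -0.75 (SE 0.17, adjusted p = 0.00699), a size of 0.749 and so just short of the limit, and the livers of these ages did not overlap.

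SLC25A4, which in mammals is the translocase of heart and muscle, followed an arch with its top at D1. The E16 livers gave 10.98, 10.41, 10.41 and 10.25 for SLC25A4, the E18 livers 9.90, 10.12, 10.26 and 10.47, and the E20 livers 11.73, 11.27, 11.68 and 11.63. The D1 livers gave 12.53, 12.23, 12.24 and 12.25, the D3 livers 11.29, 11.18, 10.99 and 11.22, and the D9 livers 10.64, 10.65, 10.57 and 10.36. Every D1 liver lay above every liver of the other ages, and the D9 livers were back within the range of E16. From E18 to E20 it rose by 1.39 (SE 0.14, adjusted p = 1.14e-06), and from D1 to D3 the difference was -1.14 (SE 0.14, adjusted p = 8.17e-06). The step from E20 to D1, 0.73 (SE 0.14, adjusted p = 0.00124), and that from D3 to D9, -0.62 (SE 0.14, adjusted p = 0.0111), missed only the limit on size. The D9 liver with the raised heart and muscle markers gave 10.64, inside the 10.36 to 10.65 of its age.

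SLC25A5, in mammals the translocase of dividing cells, had its highest mean at E20. For SLC25A5 the values of E16 were 11.36, 11.35, 11.21 and 10.88, those of E18 10.94, 11.37, 11.32 and 11.07, and those of E20 12.21, 12.14, 12.11 and 11.74. The unfed D1 chicks held 11.72, 11.68, 11.54 and 10.99, whereas the fed chicks held 12.04, 11.56, 11.56 and 11.27 at D3 and 11.55, 11.77, 12.05 and 11.85 at D9. All 4 E20 livers lay above all 4 E18 livers, with a difference of 0.87 (SE 0.17, adjusted p = 0.00217). From E20 to D1 the difference was -0.57 (SE 0.17, adjusted p = 0.0372), with no overlap and no call. SLC25A6, in humans a widely expressed translocase, gave the narrowest levels of the group. In the 4 livers of each embryonic age SLC25A6 read 13.86, 13.90, 13.79 and 13.88 at E16, 13.71, 13.93, 13.92 and 13.97 at E18, and 14.11, 14.18, 14.13 and 14.17 at E20. After hatching the D1 chicks read 14.22, 14.17, 14.26 and 14.14, the D3 chicks 13.96, 14.01, 14.01 and 14.004, and the D9 chicks 13.87, 13.89, 13.79 and 13.89. These values lay between 13.71 and 14.26, and the highest value of any probe set was 15.24. Its 4 E20 livers lay above its 4 E18 livers, with a difference of 0.27 (SE 0.06, adjusted p = 0.00669). The other probe set of SLC25A6 was called in the same step, at 0.92.

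SLC25A3 had its lowest mean at E18 (12.49) and its highest at D1 (12.99), and its step from E18 to E20, 0.46 (SE 0.07, adjusted p = 0.000181), was not called. SLC25A24, another ATP-Mg carrier, had age means between 8.31 and 8.66 and did not pass the F test (adjusted p = 0.465).

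**Figure D3:**
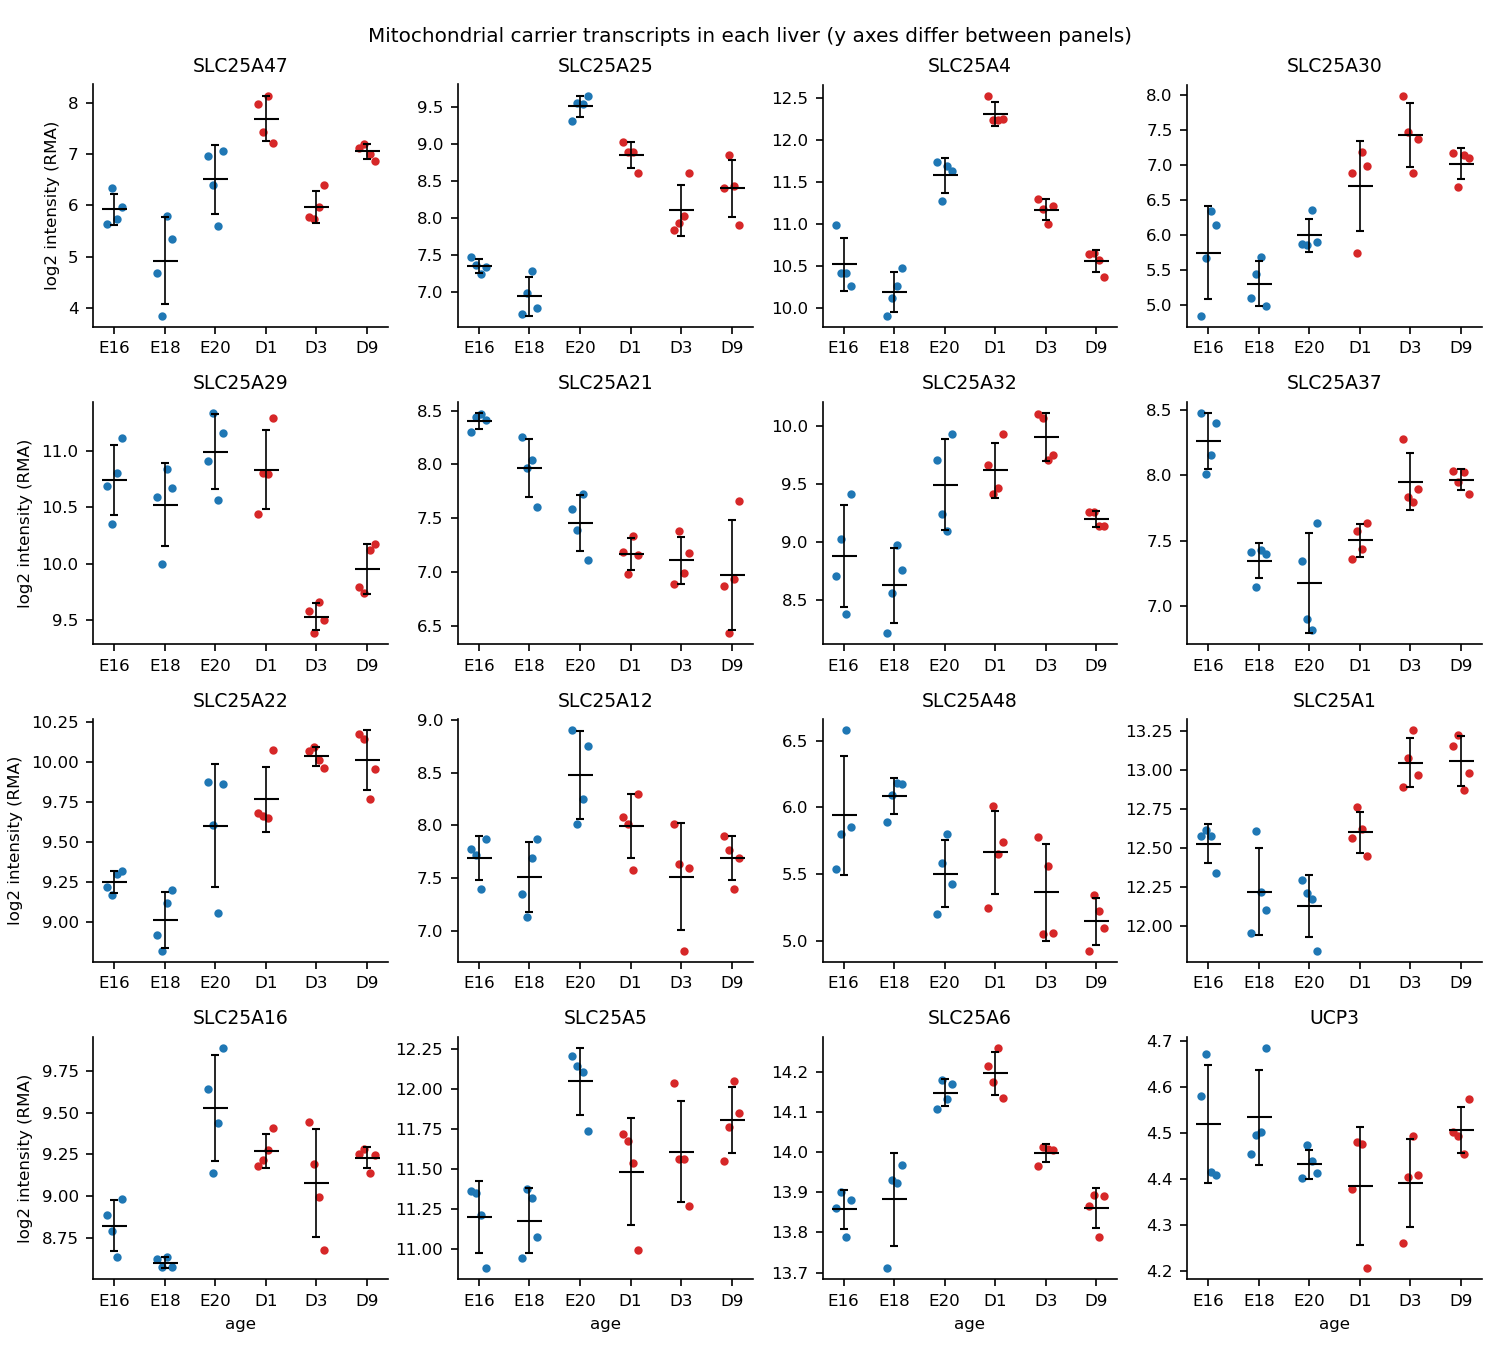
Log2 intensity (vertical axes, one scale a gene) of 16 carriers at the 6 ages (horizontal axes), with 1 point a liver and a bar at the mean of 4 livers. The E20 points of SLC25A25 and the D1 points of SLC25A4 lie above those of all other ages, and the points of UCP3 stay between 4.21 and 4.69.

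Uncoupling proteins let protons leak back into the matrix, and birds have 1 that is carried here as UCP3, known mainly from skeletal muscle. UCP3 stood at 4.58, 4.67, 4.42 and 4.41 in the E16 livers, 4.45, 4.50, 4.50 and 4.69 in those of E18, and 4.40, 4.47, 4.44 and 4.41 in those of E20. In hatchlings the values were 4.38, 4.48, 4.48 and 4.21 at D1, 4.26, 4.40, 4.49 and 4.41 at D3, and 4.50, 4.49, 4.45 and 4.57 at D9. All 24 values lay between 4.21 and 4.69, about the 25th percentile of all probe sets (4.43), and no age stood apart (F test, adjusted p = 0.367). The D9 liver with raised muscle markers read 4.50. From E18 to D3 the difference of UCP3 was -0.14 (SE 0.08, adjusted p = 0.18), and a level this near the background does not show a change or its absence.

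SLC25A30, a relative of the uncoupling proteins described first in mouse kidney, had the largest difference between E18 and D3 of the family. The E16 livers gave 4.85, 5.67, 6.35 and 6.14 for SLC25A30, the E18 livers 5.11, 5.45, 5.70 and 4.99, and the E20 livers 5.88, 5.86, 6.36 and 5.91. The D1 livers gave 6.89, 5.75, 7.19 and 6.99, the D3 livers 7.996, 7.47, 6.89 and 7.38, and the D9 livers 7.17, 6.69, 7.14 and 7.10. The D3 livers lay above all embryonic livers. The spread within ages was wide, with an SD of up to 0.66. SLC25A30 had only 1 probe set, and its E18 mean of 5.31 lay below the array medians (5.43 to 5.55). It rose by 2.13 (SE 0.30, adjusted p = 9.44e-06) from E18 to D3, a 4.36-fold step. In E vs. H it was 1.37 (SE 0.17, adjusted p = 1.39e-06) higher in hatchlings, although D1 replicate 2, at 5.75, lay within the embryonic range. No single step between neighbouring ages was called for it: 0.69 from E18 to E20, 0.70 from E20 to D1 and 0.73 from D1 to D3. SLC25A14, the related carrier known from brain, had its mean at 7.72 at E18 and at 8.51 at D3, and rose by 0.79 (SE 0.09, adjusted p = 4.07e-07).

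Among the carriers of fuels and organic acids, 4 genes were measured. From E18 to D3 the citrate carrier rose and the 2-oxoadipate carrier fell, whereas the means of both fell from E16 to E20. SLC25A1 exports citrate, the source of cytosolic acetyl-CoA for fatty acid synthesis. For SLC25A1 the values of E16 were 12.58, 12.61, 12.58 and 12.34, those of E18 11.96, 12.61, 12.22 and 12.10, and those of E20 12.29, 12.22, 12.18 and 11.84. The unfed D1 chicks held 12.57, 12.76, 12.62 and 12.45, whereas the fed chicks held 12.89, 13.08, 13.25 and 12.97 at D3 and 13.15, 13.22, 12.87 and 12.98 at D9. The D3 and D9 livers lay above all livers of the earlier ages. From E18 to D3 it rose by 0.82 (SE 0.13, adjusted p = 2.48e-05), and in E vs. H the difference was 0.61 (SE 0.07, adjusted p = 6.06e-07), under the limit on size. Without E18 replicate 1 the difference from E18 to D3 was 0.74. This carrier reached the D3 level in steps of 0.47 from E20 to D1 and 0.45 from D1 to D3, neither of them called.

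SLC25A21 carries 2-oxoadipate, an intermediate of lysine and tryptophan breakdown, and declined across the period. In the 4 livers of each embryonic age SLC25A21 read 8.30, 8.44, 8.46 and 8.41 at E16, 8.26, 7.97, 8.04 and 7.61 at E18, and 7.58, 7.39, 7.72 and 7.11 at E20. After hatching the D1 chicks read 7.19, 6.98, 7.34 and 7.16, the D3 chicks 6.89, 7.38, 6.99 and 7.17, and the D9 chicks 6.87, 6.43, 6.93 and 7.66. The E16 livers lay above all other livers. The lowest E18 liver (7.61) still stood above the highest D1 or D3 liver (7.38). The difference was -0.86 (SE 0.11, adjusted p = 1.13e-06) in E vs. H and -0.86 (SE 0.19, adjusted p = 0.00115) from E18 to D3. No single step was called, with -0.44 from E16 to E18 and -0.51 from E18 to E20.

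SLC25A20, the carnitine-acylcarnitine carrier that admits long-chain fatty acids for oxidation, had its highest mean at E16 (11.79) and lay between 11.13 and 11.18 at the 4 ages from E20 on. Its difference was -0.36 (SE 0.07, adjusted p = 0.000325) in E vs. H and -0.46 (SE 0.12, adjusted p = 0.0221) from E18 to E20, both past the p limit and under the limit on size. The other probe set of SLC25A20 took another course, given below with the probe sets that were not used. SLC25A10, the dicarboxylate carrier, had age means between 6.97 and 7.40 and did not pass the F test (adjusted p = 0.572).

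Of the 5 amino acid carriers measured, 4 varied. SLC25A29, which in mammals carries arginine, lysine and ornithine, fell between D1 and D3. SLC25A29 stood at 10.69, 10.36, 10.81 and 11.12 in the E16 livers, 10.59, 9.99, 10.84 and 10.68 in those of E18, and 10.91, 11.34, 10.57 and 11.16 in those of E20. In hatchlings the values were 10.44, 10.81, 10.80 and 11.30 at D1, 9.58, 9.38, 9.66 and 9.50 at D3, and 9.79, 9.74, 10.12 and 10.17 at D9. No D3 or D9 liver reached the lowest D1 liver, 10.44. The difference from D1 to D3 was -1.31 (SE 0.20, adjusted p = 0.000114), and from E18 to D3 it was -0.997 (SE 0.20, adjusted p = 0.000465). From D3 to D9 the livers did not overlap either, but the difference of 0.43 (SE 0.20, adjusted p = 0.323) was not called.

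SLC25A22 brings glutamate into the matrix, where glutamate dehydrogenase acts on it. The E16 livers gave 9.22, 9.17, 9.30 and 9.32 for SLC25A22, the E18 livers 8.92, 8.82, 9.12 and 9.20, and the E20 livers 9.88, 9.61, 9.06 and 9.87. The D1 livers gave 9.68, 9.67, 9.65 and 10.07, the D3 livers 10.07, 10.10, 10.02 and 9.97, and the D9 livers 10.18, 10.14, 9.77 and 9.96. The D3 livers lay above the E18 livers, and E20 replicate 3 (9.06) lay apart from the other E20 livers, with the E18 values. SLC25A22 rose by 1.02 (SE 0.14, adjusted p = 7.47e-06) from E18 to D3. Between E18 and E20 the difference was 0.59 (SE 0.14, adjusted p = 0.0113), and a call was gained there when that E20 liver was left out.

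SLC25A12 and SLC25A13 are the aspartate-glutamate exchangers of the malate-aspartate shuttle, and SLC25A13 (citrin) is the liver form in mammals. For SLC25A12 the values of E16 were 7.78, 7.72, 7.39 and 7.88, those of E18 7.35, 7.13, 7.69 and 7.87, and those of E20 8.90, 8.01, 8.25 and 8.75. The unfed D1 chicks held 8.08, 8.02, 7.58 and 8.30, whereas the fed chicks held 8.01, 7.64, 6.82 and 7.60 at D3 and 7.90, 7.77, 7.40 and 7.69 at D9. SLC25A12 peaked at E20, where every liver lay above all livers of E18, with a difference of 0.97 (SE 0.23, adjusted p = 0.00931). Its D3 mean of 7.52 was back at the E18 mean of 7.51. SLC25A13 took another course: it had age means of 10.98 at E18, 11.64 at D1 and 11.77 at D9, and its difference from E18 to D3, 0.72 (SE 0.11, adjusted p = 4.07e-05), was under the limit on size. Of its 3 probe sets, 1 that was not used was called in that contrast, at 0.81, and the last gave 0.61 without a call. Between the exchangers the difference of these courses was not tested. SLC25A15, in mammals the ornithine carrier of the urea cycle, had age means between 5.26 and 5.66 and did not pass the F test (adjusted p = 0.114).

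Iron, heme and glutathione carriers were 4, and 1 of them varied. SLC25A37 (mitoferrin-1) imports iron and is best known from red blood cell precursors. In the 4 livers of each embryonic age SLC25A37 read 8.47, 8.01, 8.16 and 8.40 at E16, 7.41, 7.15, 7.43 and 7.40 at E18, and 7.35, 6.91, 6.82 and 7.64 at E20. After hatching the D1 chicks read 7.36, 7.58, 7.44 and 7.64, the D3 chicks 8.27, 7.84, 7.80 and 7.89, and the D9 chicks 8.03, 7.95, 8.02 and 7.86. All E16 livers lay above all E18, E20 and D1 livers, and the fall from E16 to E18 was -0.91 (SE 0.15, adjusted p = 0.00179). From E18 to D3 the difference was 0.60 (SE 0.15, adjusted p = 0.0031), with no overlap and no call. Red cell markers followed the same course only in part. The mean of 11 measured erythroid markers (of 20 listed, none of them at background) lay between 8.63 and 8.71 in the E16 livers. In those of E18 it lay between 8.15 and 8.21. It was lowest in the E20 livers (7.40 to 7.74) and the D1 livers (7.48 to 7.95). It then read 7.81 to 8.12 at D3 and 7.98 to 8.18 at D9. The marker mean of every E18 liver thus lay above that of every D3 liver, whereas SLC25A37 was lower at E18 than at D3. HBA1, an alpha-type globin, had age means of 14.42 at E16, 12.56 at E20 and 14.14 at D9. The part of the red cell share of the liver in this result was not tested, and in whole liver fewer cells of a type and less RNA per cell cannot be told apart.

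SLC25A28 (mitoferrin-2), the iron carrier of other tissues, had its lowest mean at E18 (8.35) and its highest at D9 (9.04), and its E vs. H difference of 0.53 (SE 0.08, adjusted p = 1.18e-05) was under the limit on size. SLC25A38, which supplies glycine for heme, went from 6.47 at E18 to 7.11 at D3, a difference of 0.64 (SE 0.13, adjusted p = 0.000519). SLC25A39, the glutathione importer, did not pass the F test on the probe set used (adjusted p = 0.105), and its other probe sets gave another picture, given beside the plot of probe sets.

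The 8 nucleotide and cofactor carriers held 4 that varied. SLC25A32 brings folate, and in human cells FAD, into the matrix. SLC25A32 stood at 8.70, 9.02, 8.38 and 9.41 in the E16 livers, 8.21, 8.56, 8.98 and 8.76 in those of E18, and 9.71, 9.24, 9.10 and 9.94 in those of E20. In hatchlings the values were 9.67, 9.41, 9.47 and 9.94 at D1, 10.11, 10.07, 9.71 and 9.76 at D3, and 9.26, 9.26, 9.14 and 9.14 at D9. The D3 livers lay above the E18 and D9 livers. It rose by 0.87 (SE 0.20, adjusted p = 0.00864) from E18 to E20 and stood 1.28 (SE 0.20, adjusted p = 3.54e-05) above E18 at D3. The call from E18 to E20 was lost without E18 replicate 1 or without E20 replicate 4. From D3 to D9 its difference was -0.71 (SE 0.20, adjusted p = 0.0488), again without overlap, and just under the limit on size. Other probe sets of SLC25A32 took another course after D1, given below.

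SLC25A16 has been tied to coenzyme A in the matrix. The E16 livers gave 8.89, 8.79, 8.64 and 8.99 for SLC25A16, the E18 livers 8.63, 8.58, 8.64 and 8.58, and the E20 livers 9.64, 9.14, 9.44 and 9.89. The D1 livers gave 9.18, 9.22, 9.28 and 9.41, the D3 livers 9.44, 9.19, 8.995 and 8.68, and the D9 livers 9.25, 9.28, 9.14 and 9.25. The E18 livers were the tightest set, from 8.58 to 8.64, and all E20 livers lay above them, with a difference of 0.92 (SE 0.14, adjusted p = 0.000132). SLC25A42, the coenzyme A and ADP exchanger, had a mean of 6.38 at D1 and 5.69 at D3, and the difference of -0.69 (SE 0.17, adjusted p = 0.014) was under the limit on size although the livers did not overlap. SLC25A17, which sits in the peroxisome and carries cofactors there, had its lowest mean at E20 (7.75) and its highest at D3 (8.54). SLC25A36, a pyrimidine nucleotide carrier, varied with its highest mean at E16 (7.29) and its lowest at D3 (6.50), without a call in any contrast. SLC25A33, the other pyrimidine nucleotide carrier, had its lowest mean at E18 (5.06) and its highest at D1 (5.75). SLC25A26, the S-adenosylmethionine carrier, had means between 6.33 and 6.91, and SLC25A51, the NAD carrier, between 7.57 and 7.96, neither with a call.

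In the 4 carriers that were given no cargo group here, SLC25A47 had age means that spanned 2.76, the widest range of the family with all livers in. Without E18 replicate 2 its range was 2.41, and SLC25A25 had the widest, at 2.58. In mammals SLC25A47 is a carrier found nearly only in the liver. For SLC25A47 the values of E16 were 5.65, 6.34, 5.73 and 5.96, those of E18 4.69, 3.85, 5.80 and 5.34, and those of E20 6.96, 6.39, 5.61 and 7.06. The unfed D1 chicks held 7.96, 7.43, 8.14 and 7.21, whereas the fed chicks held 5.77, 5.73, 5.97 and 6.40 at D3 and 7.12, 7.20, 7.01 and 6.87 at D9. Its D1 livers lay above all other livers, and its D3 livers below those of D1 and D9. The E18 livers were uneven (SD 0.84), and replicate 2, the array with the female W signal, read 3.85, under the 25th percentile of all probe sets, so the low end of this range is a level near background. It rose by 1.59 (SE 0.33, adjusted p = 0.00375) from E18 to E20, with overlap, and by 1.18 (SE 0.33, adjusted p = 0.025) from E20 to D1, without. The call from E20 to D1 was lost when E20 replicate 2, E20 replicate 3, D1 replicate 1 or D1 replicate 3 was left out. From D1 to D3 the difference was -1.72 (SE 0.33, adjusted p = 0.00165), a 3.28-fold fall. From D3 to D9 it was 1.08 (SE 0.33, adjusted p = 0.0737), with no overlap and no call, and a call was gained without E18 replicate 2, E18 replicate 3 or E20 replicate 3. Hatchlings stood 1.12 (SE 0.19, adjusted p = 6.65e-05) above embryos.

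SLC25A47 and SLC25A29 are next to each other on chromosome 5 in the RefSeq gene table, and both fell from D1 to D3. SLC25A29 differed by 0.47 (SE 0.20, adjusted p = 0.175) from E18 to E20 and by -0.16 (SE 0.20, adjusted p = 0.746) from E20 to D1, without a call, and whether the courses of both genes differ was not tested. SLC25A5 and SLC25A43 are neighbours on chromosome 4, and both had their highest mean at E20. SLC25A43 had an E20 mean of 7.86 against 7.35 at E18 and 7.16 at D1, with differences of 0.51 (SE 0.08, adjusted p = 0.000292) and -0.70 (SE 0.08, adjusted p = 3.05e-06), each past the p limit, without overlap and under the limit on size.

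SLC25A48 varied over the ages (F test, adjusted p = 0.00418) but was called in no contrast. In the 4 livers of each embryonic age SLC25A48 read 5.54, 5.80, 6.58 and 5.85 at E16, 5.89, 6.09, 6.18 and 6.17 at E18, and 5.20, 5.58, 5.80 and 5.43 at E20. After hatching the D1 chicks read 5.25, 6.01, 5.65 and 5.74, the D3 chicks 5.78, 5.06, 5.56 and 5.06, and the D9 chicks 4.93, 5.34, 5.22 and 5.09. The E18 livers lay above those of E20, D3 and D9. From E18 to D3 the difference was -0.72 (SE 0.20, adjusted p = 0.00828), under the limit on size, and it was -0.79 without E18 replicate 1 or D3 replicate 3 and -0.86 without D3 replicate 1. SLC25A46, which sits in the outer membrane and acts on mitochondrial shape, had means between 7.39 and 7.73 and did not pass the F test (adjusted p = 0.22).

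Several carriers were read by more than 1 probe set, and these did not always tell the same story. Of the 23 carriers with several, the probe sets of 11 differed in whether they were called in some contrast. SLC25A25 was called from E18 to E20 on 2 of its 3 probe sets, at 2.56 and 1.80, and the third stayed flat with age means that spanned 0.14. SLC25A32 was called in that step on 4 of its 6, with differences from 0.87 to 1.16, and the other two had means of 4.12 and 3.92, below the 25th percentile. From D1 to D3 the probe set of SLC25A32 used here gave 0.29, with its highest mean at D3. The others called from E18 to E20 gave -0.17, -0.10 and -0.33, with their highest means at D1. The last of these was also called from E20 to D1 at 0.84, from D3 to D9 at -1.02 and in E vs. H at 0.94. Every call of SLC25A4 and SLC25A37 came from 1 probe set: the others of SLC25A4 had means of 5.33 and 4.13 and spanned 0.36 and 0.52, and those of SLC25A37 had means of 6.01, 4.70 and 4.57 and gave -0.04, -0.30 and 0.12 from E16 to E18. From E18 to D3, likewise, SLC25A25 was called on 1 of its 3 probe sets, with 0.61 and 0.12 on the others. In that contrast SLC25A14 was called on 1 of 2, with 0.06 on the other, and SLC25A22 on 1 of 2, with 0.70 on the other.

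In a few carriers a dimmer probe set moved more than the one used. The dimmer probe set of SLC25A6 gave 0.92 (adjusted p = 6.9e-05) from E18 to E20 and spanned 1.00, where the one used spanned 0.34. Both other probe sets of SLC25A39 spanned over 1, at 1.07 and 1.05, and were called from E18 to D3 at 0.90 and 0.96, where the one used gave 0.07. The brighter of both was also called from E20 to D1, at 0.995. SLC25A17 was called on its other probe set from E20 to D1 at 0.85, from E18 to D3 at 1.22 and from D3 to D9 at -0.77. SLC25A28 was called on its other probe set from E18 to D3 at 0.92 and in E vs. H at 0.79. The other probe set of SLC25A20 spanned 0.78 (F test, adjusted p = 0.00155), where the one used spanned 0.65. It was highest at D1 (7.88) and lowest at D9 (7.10), and differed by -0.008 from E18 to E20. Which transcript each probe set reads was not tested, since probe sequences were not used here.

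**Figure D4:**
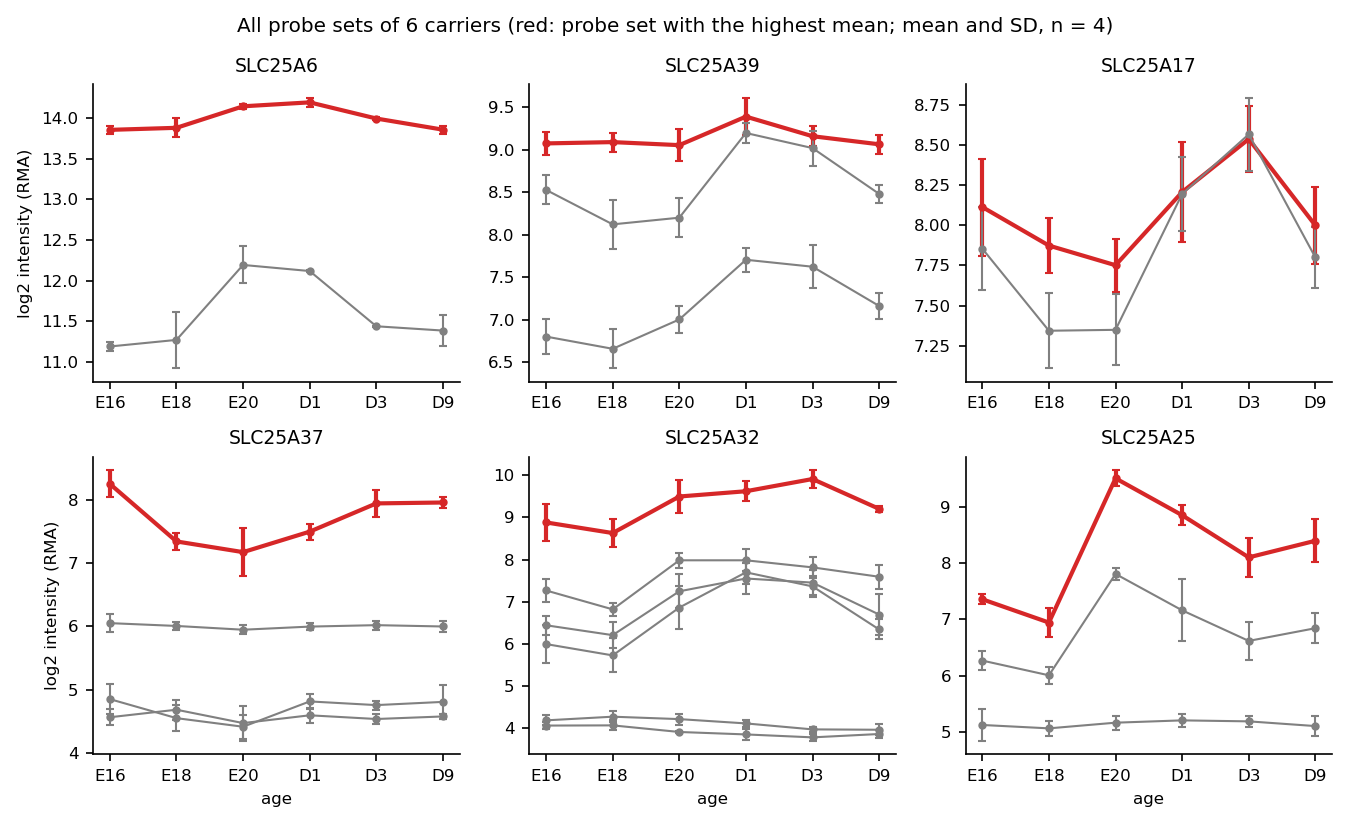
Log2 intensity (vertical axes) at the 6 ages (horizontal axes) of all probe sets of the carriers shown, with the probe set used drawn apart from the others and bars for the SD of 4 livers. In SLC25A39 the probe set used stays nearly level while both others lie lower and span over 1.

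The enzymes that use what the carriers move are set beside these changes, and a link between them was not tested. From E18 to E20 each list of partner genes or regulators held 0 to 2 genes called higher at E20 and 0 to 2 called lower. Of all named genes, 2.4% were called higher in that step and 1.83% lower. Each list is described by its counts and not tested as a list. ACLY and AADAT are named outside the rule for named genes, for their place beside a carrier, with their values already seen. Of all named genes, 11% were higher at D3 than at E18 and 6.03% were lower. From D1 to D3, 2.63% were higher at D3 and 1.88% at D1. In E vs. H, 5.42% were higher in hatchlings and 4.11% in embryos. In a list of 10, 1 gene called from E18 to D3 stands near this background. Of 8 measured genes of citrate export and lipogenesis (10 listed, without SLC25A1), 7 were higher in hatchlings in E vs. H, 7 at D3 against D1 and 7 at D3 against E18, with a median difference from E18 to D3 of 4.17 beside -0.03 over all genes. THRSP, a nuclear protein tied to lipogenesis, rose from E18 to D3 by 8.86, FASN, the fatty acid synthase, by 5.98, SCD, the stearoyl-CoA desaturase, by 5.71 and ACLY, which cleaves the citrate that SLC25A1 exports, by 3.90. The citrate carrier itself rose by 0.82 in the same contrast.

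Of 13 measured genes of the carnitine shuttle and fatty acid oxidation (17 listed), 6 were higher at E18 than at D3 and 0 lower, and 5 were higher in embryos in E vs. H. CPT1A, which makes the acylcarnitines that SLC25A20 carries, had a mean of 8.31 at E18, 10.43 at E20 and 6.16 at D3, so that it rose by 2.12 from E18 to E20 and over the longer span to D3 fell by 2.15. SLC22A5, the carnitine importer of the cell membrane, fell by 2.06 from E18 to D3. In the same contrast CROT, a peroxisomal acyltransferase, fell by 1.70 and ETFDH, which passes on electrons from acyl-CoA dehydrogenases, fell by 1.48. SLC25A20 differed by -0.48 in that contrast and was not called.

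Of 11 measured glutamate, ornithine and lysine enzymes (16 listed), 2 rose and 3 fell from E18 to D3. AASS, the first enzyme of mitochondrial lysine breakdown, fell by 2.44, beside the fall of SLC25A21, and AADAT, which makes the 2-oxoadipate that SLC25A21 carries, fell by 0.94. OAT, the ornithine aminotransferase, fell by 1.04. GLUL, the glutamine synthetase that in birds holds ammonia in liver mitochondria, rose by 1.89, and ASS1, the argininosuccinate synthase, by 2.05. Among 7 measured genes of the malate-aspartate and glycerophosphate shuttles (7 listed), 1 rose from E18 to D3 and 0 fell, with GOT1 at 0.75, and GOT2 rose by 0.95 from E20 to D1.

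Channels and ATP synthase subunits, which stand beside the nucleotide carriers, were mostly uncalled. Of 21 measured (41 listed), 0 rose from E18 to E20 and 1 fell, namely AK3, a matrix adenylate kinase that acts on GTP, which fell by 1.18. AK3 then rose by 3.16 from E20 to D1. At an E18 to D3 difference of 0.76, VDAC3, a channel of the outer membrane, was the other gene called.

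Heme and iron-sulfur enzymes (11 measured of 16 listed) held 2 that rose and 1 that fell from E18 to D3. FECH, the ferrochelatase, rose by 1.42 and ALAS1, the first enzyme of heme synthesis outside red cells, by 1.25, while HMOX1, a heme oxygenase, fell by 1.10. Among 10 measured mitochondrial folate enzymes (11 listed), 1 rose and 2 fell from E18 to D3: GLDC, a subunit of the glycine cleavage system, rose by 3.24, and SARDH and DMGDH, which oxidise sarcosine and dimethylglycine, changed by -1.92 and -1.49. Of 9 measured genes of glutathione synthesis and peroxidases (10 listed), only GCLC, the catalytic subunit of glutamate-cysteine ligase, was called from E18 to D3, with a rise of 2.78.

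Pyruvate entry and carboxylation (11 measured of 16 listed) held 2 genes that rose and 1 that fell from E18 to D3. PDHX and PDHB, parts of the pyruvate dehydrogenase complex, rose by 1.15 and 1.00, and PDK4, a kinase that turns the complex off, fell by 5.35. Of 17 measured regulators of mitochondrial genes (19 listed), 2 were higher at D3 than at E18 and 3 were lower. The 2 that were higher at D3 are not named here. In E vs. H, 0 were higher in hatchlings and 3 were higher in embryos. PPARGC1A, the coactivator of mitochondrial biogenesis, fell by 1.88, SIRT1, a deacetylase that acts on it, fell by 1.16 and PPARA, the nuclear receptor of fatty acid oxidation, fell by 0.91.

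**Figure D5:**
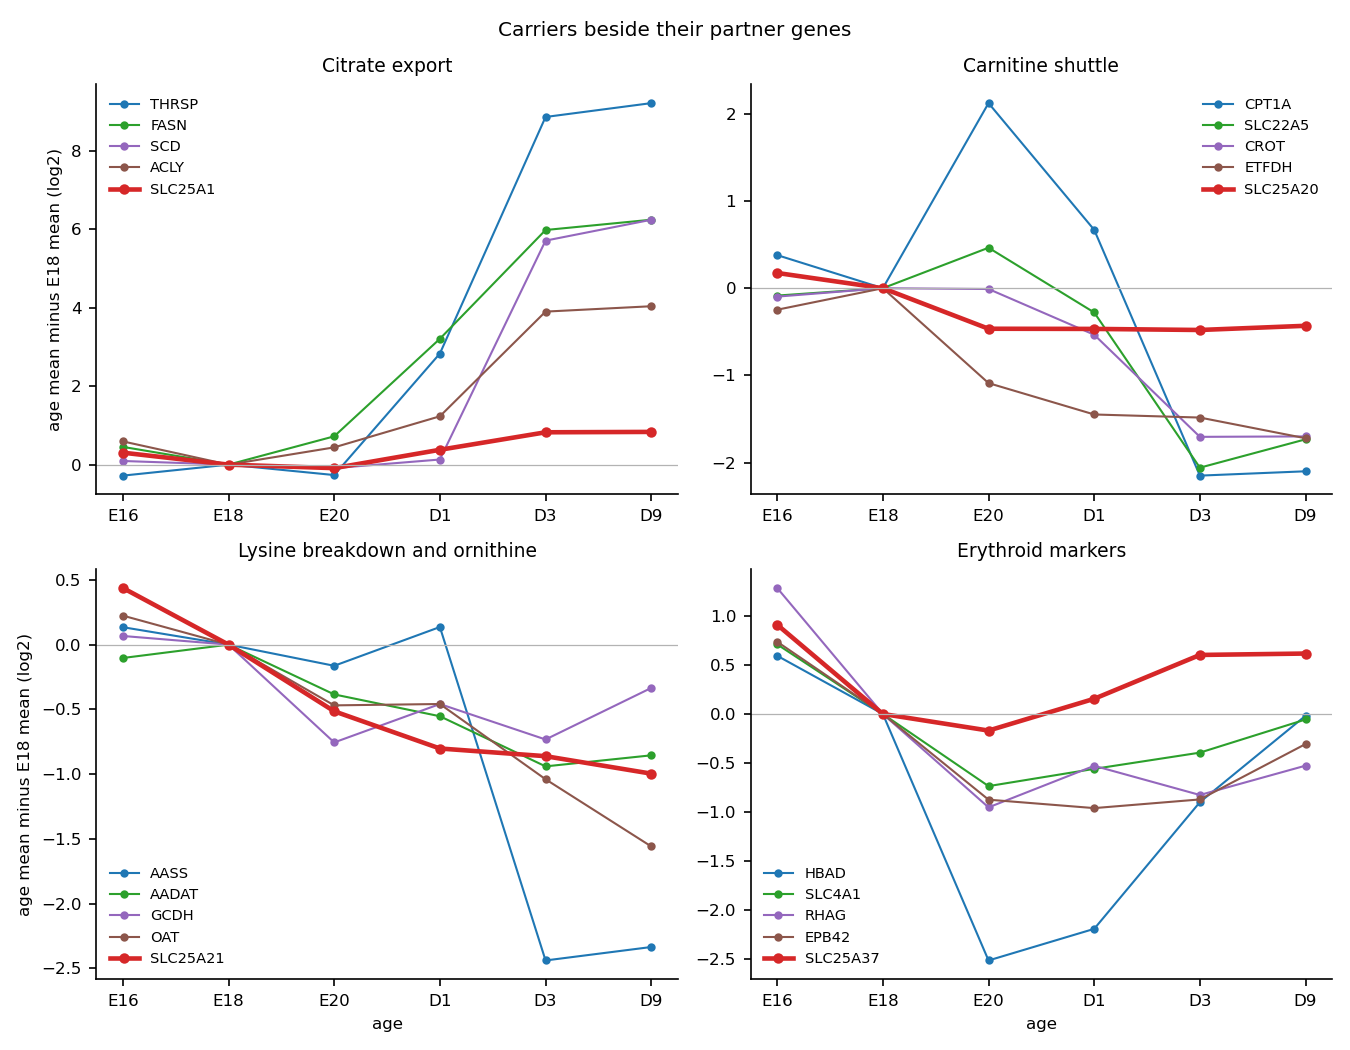
Log2 intensity (vertical axes) of carriers and of genes of their partner lists at the 6 ages (horizontal axes). Values are the age mean of 4 livers minus the E18 mean, with the carrier as the thick red line. The lower right panel sets SLC25A37 beside 4 erythroid markers. SLC25A1 rises by 0.82 from E18 to D3 where FASN rises by 5.98. SLC25A21 falls by 0.44 from E16 to E18 and by 0.86 from E18 to D3.

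Other cell types were checked by their markers for the ages at which the carriers moved. The means of 7 measured T cell markers (of 7) lay between 5.37 and 5.92 at the first 5 ages and between 6.05 and 6.17 at D9. Those of 7 macrophage markers (of 8) lay between 8.96 and 9.53 at E16, 9.56 and 9.95 at E18 and 9.62 and 10.28 at E20. In hatchlings the macrophage means lay between 9.47 and 10.07 at D1, 9.72 and 10.32 at D3 and 10.30 and 10.81 at D9. The means of 4 adipocyte markers (of 4) lay between 6.93 and 7.93 throughout. Their part in the levels of the carriers was not tested.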

How the data were processed

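Total RNA of 24 chicken livers, 4 at each of 6 ages, was hybridized to Affymetrix chicken arrays, 1 array a liver. The deposited values are log2 intensities that RMA gave the authors, after correction for background and quantile normalization, as 1 summary for every probe set, with limma 3.30.13 named in the submitters' processing notes. Quantile normalization gives all arrays nearly the same distribution, so a shift shared by all genes cannot be seen. Array medians lay between 5.43 and 5.55 and values between 3.05 and 15.24. Precision is limited by how many arrays there were.

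Of 38535 probe sets, 96 controls were left out and 38439 were tested. Platform annotation gave 27168 of them 1 gene symbol, 177 several and 11094 none, and only those with 1 symbol were named. All 34 carrier symbols matched the RefSeq gene table (assembly GRCg7b), which was used for names and neighbours. The genome build of the array annotation is not given in the sources used here, so no coordinates are printed.

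A linear model of 6 age means without a block was fitted to all 24 arrays with limma 3.58.1 (R 4.3.3), so that the ages shared their variance (residual degrees of freedom 18, prior 3.81). The limits on p and ratio were those of the study's methods. Those methods name limma's linear model fit and pairwise contrasts, and were taken to mean 1 fit of all arrays, which they do not state. Tests were two-sided, with Benjamini-Hochberg adjustment over the 38439 probe sets. The fit was tested on simulated data before use. The methods describe 4 hybridization days, each with 1 liver of every age. Replicate numbers were taken to mark these days and so to pair the samples, which the sample titles do not state. Deviations from the age means correlated at 0.071 on average within a replicate number (60 pairs) and -0.0234 between numbers (180 pairs).

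Values of every liver are given for the 14 carriers with the widest age means among those that vary, and for the adenine nucleotide translocases and UCP3. Genes of the partner lists are named where called, up to 4 a list by size of difference, apart from those said to fall outside this rule or not to be named. The members, lists and tests were chosen with earlier results of these data known. Figures were drawn with matplotlib 3.10.9. Alternatives were a replicate block, cyclic loess, array weights, trended and robust moderation, a filter at the 25th percentile, other choices of probe set, no limit on the ratio, fits of only the 8 arrays compared, and arrays left out. Sequences were not used here.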

Additional observations from a re-analysis of the deposited data

Results flagged for a closer look

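Of 96 sets of 4 livers of an age (the 16 carriers with values by liver, at 6 ages), 6 held a liver far from the other three by Dixon's test, and chance flags about 1 in 20. SLC25A1 read 12.34 on E16 replicate 4, with the others from 12.58 to 12.61. SLC25A4 read 12.53 on D1 replicate 1, with the others from 12.23 to 12.25. SLC25A22 read 10.07 on D1 replicate 4, with the others from 9.65 to 9.68. SLC25A30 read 6.36 on E20 replicate 3, with the others from 5.86 to 5.91, and 6.69 on D9 replicate 2, with the others from 7.10 to 7.17. SLC25A37 read 7.15 on E18 replicate 2, the array with the female W signal, with the others from 7.40 to 7.43. No liver was flagged in more than one of the 6 cases.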

How the results depend on the processing

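The replicate number as a block, taken to stand for the hybridization day, changed none of the counts of carriers. In that fit 18 varied and 3 were called in E vs. H. By step, 1 was called from E16 to E18, 7 from E18 to E20, 1 from E20 to D1, 3 from D1 to D3 and 0 from D3 to D9. From E18 to D3, 10 were called. Without the limit on the ratio the counts were 22 in E vs. H, 14 from E18 to E20, 9 from E20 to D1, 8 from D1 to D3, 3 from D3 to D9 and 23 from E18 to D3. With the probe set of largest variance they were 5 in E vs. H, 4 from E20 to D1 and 2 from D3 to D9. Averaging all probe sets of a gene, 0 were called from E16 to E18 and 1 from D3 to D9. In fits of only the 8 arrays compared 0 were called from E20 to D1 and 1 from D3 to D9, and array weights gave 1 from D3 to D9. The D3 to D9 call was SLC25A47 under array weights, the probe set mean and the fit of 8 arrays. The cause of these moves was not tested, other than that dropping a limit can only add calls. Shares of all named genes were not counted under these settings, so these counts have no background beside them. In all, 63 of 77 counts kept within 1.5 times under other settings and 14 moved.

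With each array left out in turn, 17 to 19 carriers varied, and the counts ran from 3 to 3 in E vs. H, 1 to 2 from E16 to E18, 6 to 8 from E18 to E20, 0 to 3 from E20 to D1, 3 to 4 from D1 to D3, 0 to 1 from D3 to D9 and 9 to 11 from E18 to D3. For the largest difference of each of the 16 carriers, 123 of 128 values kept their direction and side of the limits under other settings and none reversed. SLC25A1 from E18 to D3 was 0.69 under cyclic loess, and SLC25A4 from E18 to E20 was 0.58 and SLC25A37 from E16 to E18 was -0.28 with the probe set mean, all under the ratio limit. SLC25A6 from E18 to E20 was 0.92 with the probe set of largest variance, and SLC25A48 from E18 to D3 was -0.76 under array weights, both past it. Signal over background limits UCP3, and SLC25A47 at E18. The E18 means of SLC25A30 and SLC25A33 and the D9 mean of SLC25A48 also lay below the array medians.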
